A study of Mus musculus with 2 samples.

Results

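The RNA-poor condensing spermatids of the mouse testis were chosen by their own counts, as the droplet barcodes in which Prm1, Prm2, Tnp1 and Tnp2 together made up at least 10% of the unique molecular identifiers (UMIs, each 1 captured RNA molecule) and which held fewer than 9000 UMIs. The rule found 2711 of 28245 barcodes, or 9.60% (exact Clopper-Pearson 95% interval 9.26 to 9.95%). The series profiled total testicular cells of adult mice of strain C57BL/CJ;ICR by droplet-based 3′ sequencing, with 1 library from miR-202-/- testes and 1 library from wild-type testes. The cells were released with collagenase and then trypsin, and debris was removed by fluorescence-activated sorting. The sources name no promoter, Cre line or number of animals, and both libraries came from whole dissociated testis, so that somatic cells and germ cells of any stage could be present. The deposited table joins the libraries, each barcode name ends in 1 or 2, and no source used here ties this mark to a genotype. No difference between genotypes is therefore given. Mark 1 held 1167 of the RNA-poor barcodes (9.02% of 12935, interval 8.53 to 9.53%) and mark 2 held 1544 (10.1% of 15310, interval 9.61 to 10.6%). Pairs of values below give mark 1 before mark 2. The marks are not replicates, no test was run, and all intervals are 95% intervals that cover counting error only.

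In condensing spermatids, histones are removed and the DNA is packed first with the transition proteins TNP1 and TNP2 and then with the protamines PRM1 and PRM2. Transcription stops as the chromatin condenses, and the messages of the late proteins are stored and translated afterwards. At the end of the process most of the cytoplasm is shed as a residual body, so that the cell is left with little RNA.

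The 250 bases before the RefSeq start of the 4 transcripts that define the barcodes are shown because Prm2 stood apart from the other transcripts in the values that follow. They were read from RefSeq on build GRCm38.p6 and are printed 5′ to 3′ along the transcribed strand, which is the minus strand for all 4. Capitals mark matches, on either strand, of TGACNTCA, a form of the cAMP response element, or of TATAAA, a form of the TATA box. The windows are chr16:10796824-10797073 for Prm1, chr16:10792106-10792355 for Prm2, chr1:73015900-73016149 for Tnp1 and chr16:10788656-10788905 for Tnp2.
Prm1: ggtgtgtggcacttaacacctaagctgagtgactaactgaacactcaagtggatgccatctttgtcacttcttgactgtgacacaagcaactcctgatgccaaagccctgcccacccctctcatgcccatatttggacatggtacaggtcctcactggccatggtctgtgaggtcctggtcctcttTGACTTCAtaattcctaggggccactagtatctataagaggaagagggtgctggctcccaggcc
Prm2: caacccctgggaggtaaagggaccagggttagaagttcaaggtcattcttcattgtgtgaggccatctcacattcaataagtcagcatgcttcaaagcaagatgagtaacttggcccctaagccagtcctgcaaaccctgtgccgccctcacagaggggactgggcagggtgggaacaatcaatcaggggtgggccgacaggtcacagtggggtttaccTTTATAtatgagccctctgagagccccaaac
Tnp1: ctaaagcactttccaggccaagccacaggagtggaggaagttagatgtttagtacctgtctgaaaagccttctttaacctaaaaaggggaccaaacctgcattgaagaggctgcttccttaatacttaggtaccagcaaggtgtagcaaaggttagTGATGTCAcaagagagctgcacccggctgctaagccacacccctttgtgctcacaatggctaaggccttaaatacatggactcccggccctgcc
Tnp2: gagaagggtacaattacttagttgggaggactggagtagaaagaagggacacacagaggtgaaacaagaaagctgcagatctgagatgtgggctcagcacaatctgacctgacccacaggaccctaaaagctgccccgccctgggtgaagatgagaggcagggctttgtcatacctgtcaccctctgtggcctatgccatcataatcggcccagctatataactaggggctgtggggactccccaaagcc
TGACNTCA matched the printed strand of the Prm1 window 64 bases before the start. It matched the Tnp1 window 94 bases before the start, on the strand opposite to the printed one. TATAAA matched only the Prm2 window, 31 bases before the start and also on the opposite strand. Neither string was found in the Tnp2 window. Only these exact strings were searched, so other forms of either element would be missed in any window. Whether a match bears on the transcript levels was not tested. Of 32851 RefSeq promoter windows searched in the same way, 7.49% held TGACNTCA and 12.4% held TATAAA. Prm1, Prm2 and Tnp2 lie together on chromosome 16, with Prm3 at chr16:10790505-10790914 between Prm2 and Tnp2.

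The RNA-poor barcodes held a median of 7020 UMIs (7282 and 6842.5 under the marks, range 3544 to 8993) and a median of 2198 detected genes. They were set beside the barcodes that also had at least 10% of UMIs in the 4 transcripts but more RNA. They were also set beside those under the same UMI limit with a lower share. The middle barcodes (9000 to under 20000 UMIs) numbered 3316 with a median of 13001 UMIs, the RNA-rich barcodes (20000 or more) numbered 1150 with a median of 25792, and the low-share barcodes (under 10% and under 9000 UMIs) numbered 16005 with a median of 4460. Because a library can also hold empty or mixed droplets, barcodes picked by somatic genes served as a check of free RNA. They were 492 barcodes with at least 10 UMIs of the Sertoli cell genes Cst9, Cst12, Defb36, Aard and Rhox8 and under 10% of UMIs in the 4 transcripts, called the Sertoli gate, and 85 with at least 10 UMIs of complement C1q genes, called the macrophage gate. The share limit keeps protamine-rich barcodes with Sertoli transcripts, 84 of the RNA-poor ones among them, out of the Sertoli gate, which bears on its use as a background. No doublet caller was run and no doublets were removed. Of the barcode sequences, 73 occurred under both marks, which touched 8 RNA-poor barcodes, and none was RNA-poor under both.

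The values of the 4 transcripts chose the barcodes, so they are given as a description. Prm2 was the most abundant of them, at 7.39% and 7.48% of UMIs in RNA-poor barcodes, against 6.40% and 6.40% in middle, 5.03% and 5.44% in RNA-rich and 1.41% and 1.41% in low-share barcodes. Prm1 took 3.78% and 4.03% in RNA-poor barcodes, against 8.19% and 8.64% in middle, 8.57% and 9.02% in RNA-rich and 2.04% and 1.93% in low-share barcodes. Over whole groups, Prm2 was thus highest in the RNA-poor barcodes. Prm1 there was below its level in both groups of larger protamine-rich barcodes. The transition protein transcripts followed Prm1. Tnp1 took 1.25% and 1.3002% in RNA-poor barcodes, against 2.72% and 2.94% in middle, 3.46% and 3.64% in RNA-rich and 0.856% and 0.824% in low-share barcodes. Tnp2 took 1.43% and 1.49% in RNA-poor barcodes, against 3.12% and 3.37% in middle, 4.28% and 4.50% in RNA-rich and 0.903% and 0.866% in low-share barcodes.

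**Figure D1:**
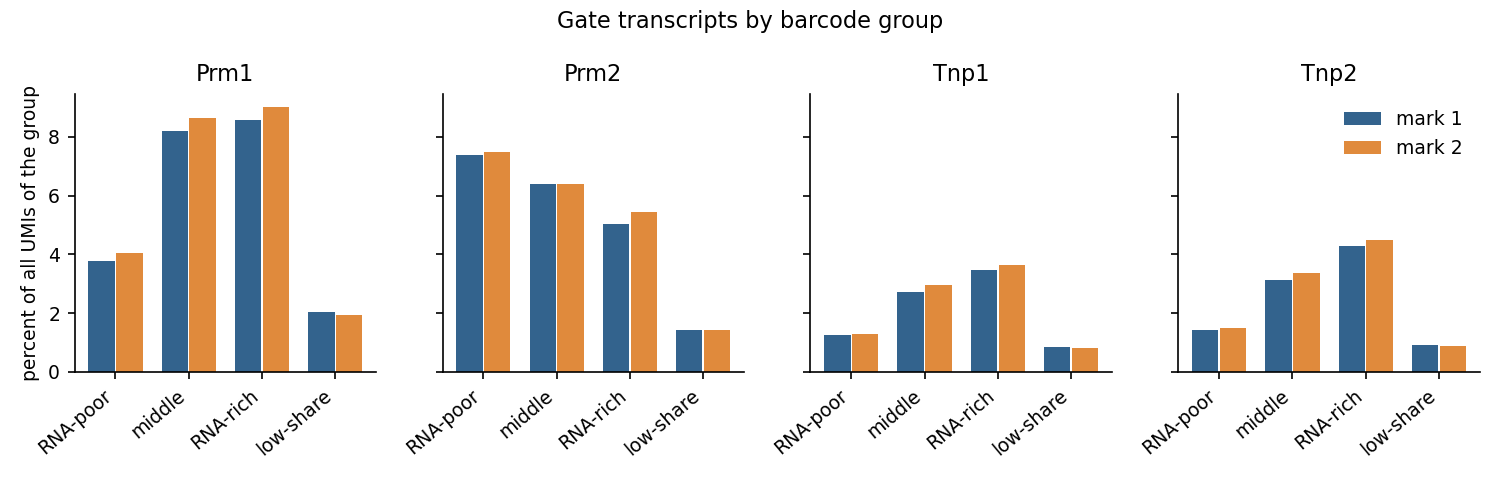
Percent of all UMIs taken by Prm1, Prm2, Tnp1 and Tnp2 (panels) in the RNA-poor, middle, RNA-rich and low-share barcodes, with 1 bar per barcode mark. Prm2 is highest in the RNA-poor barcodes (7.39% and 7.48%), whereas Prm1, Tnp1 and Tnp2 are highest in the RNA-rich barcodes.

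Counted per barcode, all 4 transcripts were fewer in RNA-poor barcodes, but unequally. Prm2 averaged 517 UMIs per RNA-poor barcode, against 862 in middle and 1526 in RNA-rich barcodes. Prm1 averaged 272 UMIs per RNA-poor barcode, against 1137 in middle and 2568 in RNA-rich barcodes. The ratio of Prm2 to Prm1 UMIs was 1.96 and 1.86 in RNA-poor barcodes, against 0.781 and 0.741 in middle, 0.588 and 0.603 in RNA-rich and 0.691 and 0.732 in low-share barcodes. Only in the RNA-poor barcodes, among these 4 groups, did Prm2 outnumber Prm1. The ratio of both transition protein transcripts to both protamine transcripts was 0.241 and 0.242 in RNA-poor barcodes, against 0.400 and 0.420 in middle, 0.569 and 0.563 in RNA-rich and 0.510 and 0.505 in low-share barcodes.

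The RNA-poor barcodes were not uniform in this composition. The part of Prm2 among the UMIs of the 4 transcripts had a median of 68.4% per barcode, with quartiles of 25.2% and 78.1%, and only 86 barcodes (3.17%) lay between 40 and 50%. In the other groups the median part was 24.5% in middle, 22.4% in RNA-rich and 25.4% in low-share barcodes. The RNA-poor barcodes therefore fell into a set with a Prm2 part like that of the other groups and a set in which Prm2 dominated. They were divided at a part of 45%, a choice made after the values had been seen. The Prm2-led barcodes (at least 45%) numbered 1764, or 65.1% (interval 63.2 to 66.9%), with 752 and 1012 under the marks. The other barcodes (under 45%) numbered 947, with 415 and 532 under the marks. They are called evenly composed as a short name, which means only a Prm2 part under 45%. The 4 transcripts were not equal in them, and Prm1 was the most abundant on average, at 498 UMIs per barcode against 301 of Prm2.

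**Figure D2:**
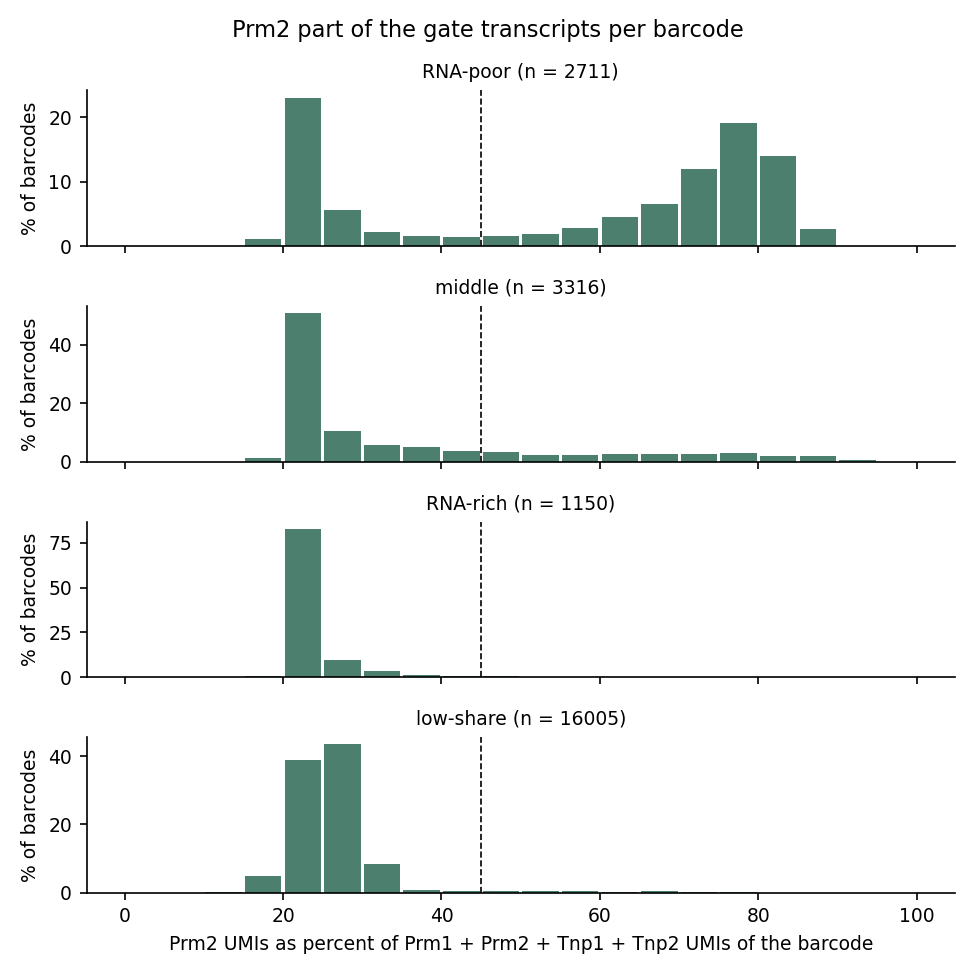
Histograms of the part of Prm2 among the Prm1, Prm2, Tnp1 and Tnp2 UMIs of each barcode (x axis, percent, bins of 5) as percent of the barcodes of each group (y axis), with a dashed line at 45%. The RNA-poor barcodes form 2 peaks, while the median part is 24.5% in middle, 22.4% in RNA-rich and 25.4% in low-share barcodes.

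The Prm2-led share was highest among RNA-poor barcodes. It was 65.1% of the RNA-poor barcodes, against 23.6% of the middle (781), 2.09% of the RNA-rich (24) and 2.79% of the low-share barcodes (447). Among all barcodes with at least 10% of UMIs in the 4 transcripts, the Prm2-led share was 63.8% under 5000 UMIs, 69.4% from 5000 to under 7000, 61.6% from 7000 to under 9000, 41.9% from 9000 to under 12000, 11.2% from 12000 to under 20000 and 2.09% from 20000 upward. The share was near level below 9000 UMIs and fell above it. Over the same bins, Prm1 averaged 144, 206, 346, 689, 1438 and 2568 UMIs per barcode. Prm2 averaged 309, 468, 588, 719, 959 and 1526 UMIs. Prm2 exceeded Prm1 below 9000 UMIs, was near it from 9000 to under 12000 and was below it in larger barcodes.

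**Figure D3:**
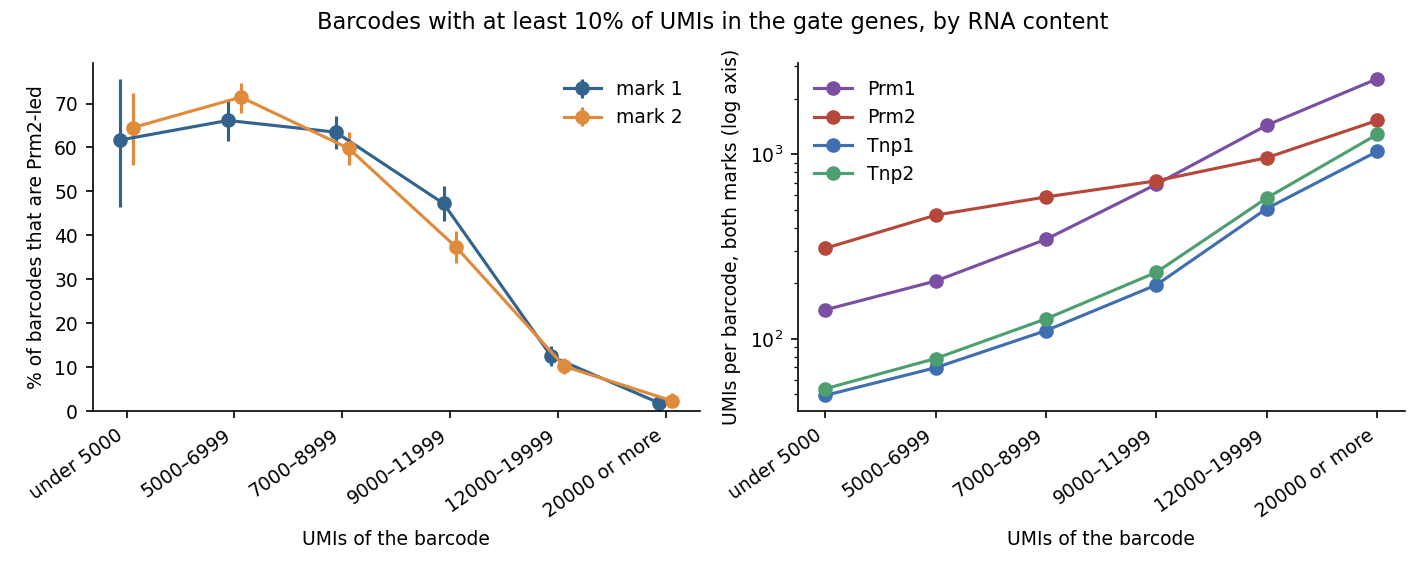
Left, percent of barcodes that are Prm2-led by UMIs of the barcode, per mark, with exact Clopper-Pearson 95% intervals; right, mean UMIs per barcode of the 4 transcripts with both marks pooled, on a log axis. All barcodes shown have at least 10% of UMIs in the 4 transcripts, and the pooled Prm2-led share is 61.6% from 7000 to under 9000 UMIs and 11.2% from 12000 to under 20000.

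Within the RNA-poor barcodes the composition also followed the share itself. Of the barcodes with a share of 10 to 12%, 84.0% were Prm2-led (731 of 870), and of those at 12 to 15%, 82.6% were (952 of 1152). The value was 16.9% at 15 to 20% (80 of 474), and at 20% or more a single barcode of 215 was Prm2-led. The barcodes richest in the 4 transcripts were thus almost all evenly composed. Prm2-led barcodes had a median share of 12.3%, against 17.0% in evenly composed ones, with medians of 6921 and 7226 UMIs and of 2132 and 2354 genes. Per Prm2-led barcode there were 633 Prm2, 151 Prm1, 34.5 Tnp1 and 40.1 Tnp2 UMIs. Per evenly composed barcode there were 301 Prm2, 498 Prm1, 191 Tnp1 and 217 Tnp2 UMIs. The division used these counts, so the values only describe it.

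The edges of the rule were described by the barcodes just inside and just outside them. Spem2, a marker described next, stood at 802 CPM (UMIs per 1000000) in the 368 barcodes with a share of 10 to 11% and at 663 CPM in the 232 with 9 to 10%. The Prm2 to Prm1 ratio was 2.78 and 2.02 in these sets. At 8500 to under 9000 UMIs, 301 barcodes had 661 CPM of Spem2 and a ratio of 1.45, against 692 CPM and 1.39 in the 269 barcodes of 9000 to under 9500 UMIs. The values ran on across the UMI limit and differed more across the share limit.

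Levels outside the 4 transcripts are given in CPM of the UMIs that remain when those transcripts are set aside, since they differ in share between the groups. The size rule called a gene higher or lower when the ratio of levels reached 1.5 one way for mark 1 and for mark 2 alike, and the greater level rested on no fewer than 50 CPM and 50 UMIs. The name of the barcodes was set beside the given markers, which were chosen with earlier results of these data known and are therefore a description, not an independent check. Spem2, the neighbour on chromosome 11 of Spem1, a gene needed in the mouse for removal of spermatid cytoplasm, stood at 824 and 776 CPM in RNA-poor barcodes, against 526 and 473 in middle, 359 and 373 in RNA-rich and 208 and 186 in low-share barcodes. Its counting intervals in RNA-poor barcodes were 804 to 846 and 758 to 794 CPM. Tssk6, a kinase of spermatids needed in the mouse for the exchange of histones for protamines, stood at 3264 and 3162 CPM in RNA-poor barcodes, against 2509 and 2406 in middle, 1793 and 1917 in RNA-rich and 820 and 743 in low-share barcodes.

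Car2, a carbonic anhydrase, stood at 1275 and 1381 CPM in RNA-poor barcodes, against 1014 and 1084 in middle, 728 and 875 in RNA-rich and 226 and 249 in low-share barcodes. Lelp1 stood at 2074 and 2141 CPM in RNA-poor barcodes, against 1667 and 1671 in middle, 1234 and 1339 in RNA-rich and 518 and 508 in low-share barcodes. On unscaled CPM all 4 markers thus had the same order, highest in the RNA-poor barcodes. Against RNA-rich barcodes all 4 passed the size rule, with ratios from 1.58 for Car2 under mark 2 to 2.29 for Spem2 under mark 1. Against middle barcodes only Spem2 passed it (1.57 and 1.64), and the ratios of Car2 (1.26 and 1.27), Tssk6 (1.301 and 1.314) and Lelp1 (1.24 and 1.28) were close to the shift of the median gene given below. After scaling by the median ratio, none of the 4 passed the rule against middle barcodes, and against RNA-rich barcodes Spem2 alone passed it. The scaled ratios against middle barcodes were 1.001 and 1.011 for Car2, 1.036 and 1.043 for Tssk6 and 0.991 and 1.017 for Lelp1, so the direction for Lelp1 turned under mark 1.

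The Sertoli and macrophage gates served as the background, since somatic cells should lack these transcripts. Spem2 was at 142 and 151 CPM in the Sertoli gate and Tssk6 at 613 and 665 CPM. After each barcode was thinned to 3500 UMIs, 83.3% of RNA-poor barcodes had a Spem2 UMI (interval 81.8 to 84.7%, 94.0% unthinned), against 70.1% of middle, 60.0% of RNA-rich, 42.8% of low-share, 42.3% of Sertoli gate (37.9 to 46.8%) and 30.6% of macrophage gate barcodes. A UMI of a spermatid transcript in a single barcode was thus common also in barcodes picked by somatic genes. The Sertoli gate held spermatocyte genes at 10316 and 9042 CPM, near the 10997 and 11283 CPM of low-share barcodes. Whether its barcodes were somatic cells, germ cells or mixed droplets was not tested. The Sertoli and macrophage gates had medians of 4780.5 and 5904 UMIs before thinning. For Tssk6 the thinned share was 99.4% of RNA-poor barcodes, against 84.6% of the Sertoli gate, and read alone it hardly separated them.

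The markers followed the Prm2 composition more closely than the UMI limit. Spem2 was at 1079 and 1001 CPM in Prm2-led barcodes, against 345 and 339 in evenly composed RNA-poor ones. Car2 was at 1647 and 1742 CPM in Prm2-led barcodes, against 574 and 681 in evenly composed ones. Tssk6 was at 4222 and 3953 CPM in Prm2-led barcodes, against 1461 and 1628 in evenly composed ones. Every marker was at least 2.43 times as high in the Prm2-led barcodes. Lelp1, at 2663 and 2684 CPM against 966 and 1089, had ratios of 2.76 and 2.47. In Prm2-led middle barcodes Car2 (1641 and 1749 CPM) and Lelp1 (2657 and 2531) were close to the Prm2-led RNA-poor level, and Spem2 was lower (890 and 798). In evenly composed RNA-poor barcodes all 4 were below the evenly composed middle barcodes, with ratios from 0.711 to 0.857. The evenly composed barcodes, with the lower levels of the given markers, are called by their Prm2 part only.

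**Figure D4:**
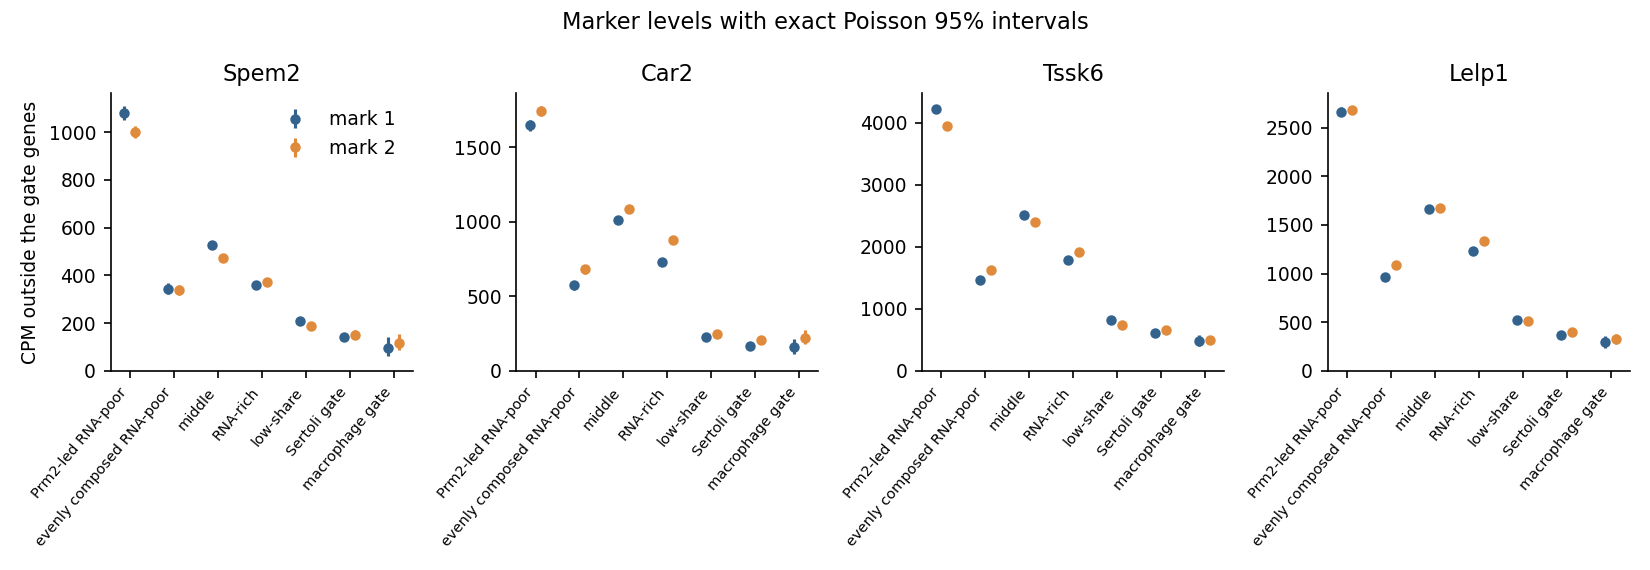
Levels of Spem2, Car2, Tssk6 and Lelp1 (panels, CPM outside the 4 transcripts) in 7 sets of barcodes, with 1 point per mark and exact Poisson 95% intervals. Of the sets plotted (Prm2-led RNA-poor, evenly composed RNA-poor, middle, RNA-rich, low-share, Sertoli gate and macrophage gate), the Prm2-led RNA-poor barcodes are highest for every marker; Prm2-led middle barcodes are not plotted. The evenly composed RNA-poor barcodes lie below the middle barcodes, for example 345 and 339 CPM of Spem2.

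The highest levels outside the 4 transcripts included those of Dbil5, Smcp, Fabp9, Ldhc and Gapdhs. Dbil5, which encodes an acyl-CoA-binding endozepine-like peptide, stood at 12740 and 13000 CPM in RNA-poor barcodes, against 10350 and 10420 in middle, 7293 and 8116 in RNA-rich and 4207 and 4186 in low-share barcodes. Smcp, the cysteine-rich protein of the sperm mitochondrial capsule, stood at 12690 and 12880 CPM in RNA-poor barcodes, against 10440 and 10360 in middle, 7670 and 8278 in RNA-rich and 3871 and 3671 in low-share barcodes. Both were again set apart by composition. Smcp was at 16010 and 15950 CPM in Prm2-led barcodes, against 6434 and 6923 in evenly composed ones. Dbil5 was at 15960 and 15870 CPM in Prm2-led barcodes, against 6691 and 7438 in evenly composed ones.

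Prm2-led barcodes had higher levels of 6 of 22 glycolysis genes and of Spem1, Spem2 and Lelp1, and lower levels of 14 of 30 chromatin genes, than evenly composed RNA-poor ones. Of 12851 genes measured, with at least 20 UMIs, 281 were higher (2.19%) and 654 lower (5.09%). The measured genes include those too low for a call in both sets, so these shares are not a like background for the lists. The median gene was lower by 0.33 and 0.28 on the log2 scale. After scaling by the median ratio, 429 were higher and 407 lower, so the balance of the counts depended on the scaling. The sets were divided on counts of the same barcodes, so these calls describe them and test nothing.

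Among 30 measured sperm chromatin genes, 2 were higher and 14 lower (2 and 12 after median scaling), with a median log2 ratio of −0.62 and −0.62. Hmgb4, an HMG-box protein of the male germ line, was at 788 and 785 CPM in Prm2-led barcodes, against 3618 and 3872 in evenly composed ones. H1fnt, a linker histone of spermatids, was at 719 and 795 CPM in Prm2-led barcodes, against 1831 and 1872 in evenly composed ones. The linker histone Hils1 was at 883 and 835 CPM in Prm2-led barcodes, against 2104 and 2026 in evenly composed ones. Chd5, a chromatin remodeller of spermatids, was at 103 and 82.4 CPM in Prm2-led barcodes, against 236 and 207 in evenly composed ones. Each of these was also lower after median scaling. The 2 higher genes of this list were Tssk6 and Dnajb8, a chaperone at 3320 and 3327 CPM in Prm2-led barcodes, against 1391 and 1514 in evenly composed ones.

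Of 22 measured glycolysis genes, 6 were higher and none lower in Prm2-led barcodes, and 8 were higher and none lower after median scaling. They were Gapdhs, Pgk2, Aldoa, Eno1, Hk1 and Tpi1. Gapdhs, the sperm form of glyceraldehyde-3-phosphate dehydrogenase, was at 6524 and 6803 CPM in Prm2-led barcodes, against 3350 and 3541 in evenly composed ones. Pgk2, the testis form of phosphoglycerate kinase, was at 1713 and 1607 CPM in Prm2-led barcodes, against 893 and 926 in evenly composed ones. Aldoa, an aldolase, was at 580 and 587 CPM in Prm2-led barcodes, against 250 and 251 in evenly composed ones. The median log2 ratio of the whole list was only 0.08 and 0.03, so most members did not pass the rule.

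In the list for head shaping and removal of cytoplasm, 3 of 32 measured genes were higher (Spem1, Spem2 and Lelp1) and 10 lower, and 4 were higher and 7 lower after median scaling. Spem2 and Lelp1 are also given markers, so they do not add to what the markers show. Spem1 was at 1302 and 1327 CPM in Prm2-led barcodes, against 581 and 610 in evenly composed ones. The 10 lower genes included Ube2b and Meig1 as well as the following 3. Actrt2, an actin-related protein, was at 303 and 315 CPM in Prm2-led barcodes, against 1241 and 1342 in evenly composed ones. Capza3, a testis actin-capping subunit, was at 215 and 236 CPM in Prm2-led barcodes, against 554 and 576 in evenly composed ones. Cylc2, a cylicin of the sperm head, was at 239 and 220 CPM in Prm2-led barcodes, against 540 and 504 in evenly composed ones. Of the fibrous sheath and outer dense fibre list, 7 of 24 were higher and 5 lower. Oaz3, an antizyme of late spermatids, was among the higher, at 4702 and 4480 CPM in Prm2-led barcodes, against 2260 and 2243 in evenly composed ones. Of the 8 testis-specific serine kinases and partners, Tssk3 and Tssk6 were higher and Tssk1 was lower.

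The genes of the highest ratio in Prm2-led over evenly composed barcodes were Spem2, Bri3bp, Plekho2, Tbc1d20, Itpr3os, Gm614, Car2, Tppp2, Azin2 and Csnk1g2. Tbc1d20, a GTPase-activating protein for Rab proteins, was at 1005 and 948 CPM in Prm2-led barcodes, against 351 and 369 in evenly composed ones. Azin2, an antizyme inhibitor, was at 873 and 815 CPM in Prm2-led barcodes, against 299 and 325 in evenly composed ones. The genes of the lowest ratio were Cst12, Defb36, Cst9, Defb19, Tex37, Aard, Tmem151a, Cby3, Gm4665 and Noxred1, and Cst12, Defb36, Cst9 and Aard are in the list of Sertoli cell genes. Tex37 was at 125 and 122 CPM in Prm2-led barcodes, against 752 and 809 in evenly composed ones.

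Sertoli transcripts and mitochondrial transcripts moved with the evenly composed barcodes. The sum of the 18 Sertoli genes was 89.5 CPM in Prm2-led barcodes, against 611 CPM in evenly composed ones, with 10 and 74 barcodes that held at least 10 UMIs of Sertoli genes. Without those 84 barcodes, Cst9 and Defb19 were still lower in Prm2-led barcodes, with ratios of 0.187 and 0.170 for Cst9. Cst12, Defb36 and Aard no longer met the level minimum. Their ratios remained low, at 0.152 and 0.127 for Cst12, 0.114 and 0.128 for Defb36 and 0.204 and 0.214 for Aard. The ratios of Spem2 (3.08 and 2.96) and Hmgb4 (0.215 and 0.200) hardly moved without them. The share of mitochondrial genes was 0.328% outside the 4 transcripts in Prm2-led barcodes, against 0.882% in evenly composed ones. The part of Sertoli or mitochondrial transcripts in the other differences was not tested beyond this.

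Set against larger Prm2-led barcodes, few genes of the Prm2-led RNA-poor barcodes passed the rule. The sets share the limit of 45% but not the composition, since the median Prm2 part was 75.9% in Prm2-led RNA-poor barcodes, against 66.5% in Prm2-led middle ones, and Prm1 took 2.20% of UMIs, against 3.92%. Prm2 itself took 9.20% of UMIs in Prm2-led RNA-poor barcodes, against 9.30% in Prm2-led middle and 10.4% in Prm2-led RNA-rich ones. Within Prm2-led barcodes it was thus not highest in the RNA-poor ones. Of 12528 genes measured, 8 were higher (0.0639%) and 83 lower (0.663%) than in Prm2-led middle barcodes, and after median scaling none was higher and 194 were lower. The median gene was higher by 0.23 and 0.25 on the log2 scale. The lists for chromatin and for chaperones held 3 lower genes each, and the ubiquitin list held Rnf133 and Otub2. Prm3, an acidic cytoplasmic protein of spermatids encoded in the protamine cluster, was at 2114 and 2556 CPM in Prm2-led RNA-poor barcodes, against 3526 and 4124 in Prm2-led middle ones. H2al2a, a histone variant of condensing spermatids, was at 1098 and 1270 CPM in Prm2-led RNA-poor barcodes, against 2030 and 2293 in Prm2-led middle ones. H1fnt was at 719 and 795 CPM in Prm2-led RNA-poor barcodes, against 1217 and 1307 in Prm2-led middle ones. All 3 were also lower after median scaling, while Hmgb4 (788 and 785 CPM, against 684 and 676) and Hils1 (883 and 835 CPM, against 694 and 619) were not called.

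Spata6, needed in the mouse for the link of sperm head and tail, was at 1506 and 1647 CPM in Prm2-led RNA-poor barcodes, against 2689 and 2761 in Prm2-led middle ones. Gabarapl1, a member of the ATG8 family of autophagy proteins, was at 984 and 1143 CPM in Prm2-led RNA-poor barcodes, against 1754 and 1947 in Prm2-led middle ones. Otub2, a deubiquitinase, was at 772 and 944 CPM in Prm2-led RNA-poor barcodes, against 1348 and 1577 in Prm2-led middle ones. These 3 transcripts were thus lower in the smaller of the Prm2-led barcodes. The testis heat shock gene Hspa1l (134 and 118 CPM, against 241 and 211) and the chaperone Dnajb3 (1373 and 1648 CPM, against 2847 and 3188) were lower as well. The lowest ratios belonged to hemoglobin, with Hbb-bs at 2.34 and 2.70 CPM in Prm2-led RNA-poor barcodes, against 246 and 332 in Prm2-led middle ones. The higher genes included Ik, Timm13, Rwdd4a, Ccdc65, Gm26611, Slc25a3 and 4930550C14Rik.

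Evenly composed RNA-poor barcodes, by contrast, differed from evenly composed middle ones in the direction of the general shift. Of 14593 genes measured, 586 were higher (4.02%) and 3 lower (0.0206%), and the median gene was higher by 0.49 and 0.48. After median scaling 26 were higher and 606 lower. The chromatin, head-shaping, fibrous sheath, midpiece, acrosome, glycolysis and proteasome lists each held higher genes without that scaling and only lower genes with it. With and without it, 4 of 17 Sertoli genes and 10 of 13 mitochondrial genes were higher, while the 8 higher spermatocyte genes were no longer called. Cst12 was at 105 and 104 CPM in evenly composed RNA-poor barcodes, against 24.7 and 23.5 in evenly composed middle ones. The mitochondrial mt-Co1 was at 1674 and 1232 CPM in evenly composed RNA-poor barcodes, against 600 and 476 in evenly composed middle ones. Spermatocyte genes summed to 7989 CPM in evenly composed RNA-poor barcodes, against 6109 in evenly composed middle ones. What these shares of other transcripts contribute was not tested.

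Without the division by composition, the RNA-poor barcodes had lower levels of 9 of 30 chromatin and 6 of 33 head-shaping genes than the middle barcodes, and higher levels of 2 genes of each list. Of 15635 genes measured, 237 were higher (1.52%) and 272 lower (1.74%). Only 2783 of these genes reached the level minimum for a call in either group, against 24 of 30 chromatin and 24 of 33 head-shaping genes. The median gene was higher by 0.32 and 0.33 on the log2 scale, and none was higher and 630 were lower after scaling by the median ratio, with 0 and 621 by the trimmed mean of M-values (TMM) method of edgeR. At 2-fold, none was higher and 33 were lower. With a share of at least 15% in the rule the 272 lower calls fell to 0, and with 20% to 3. The higher calls therefore exist only on the unscaled CPM. Of the 237, 236 had a higher level in low-share than in RNA-poor barcodes under both marks, and the exception was Spem2. All 272 lower genes were lower in Prm2-led than in evenly composed RNA-poor barcodes. Both counts reuse the sums of the RNA-poor barcodes that made the calls.

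Of 30 measured chromatin genes, 9 were lower than in middle barcodes (Prm3, H1fnt, H2al2a, H2al1m, Hmgb4, Camk4, Cypt1, Cypt3 and Spata24) and 2 higher (H3f3b and Morc2b), with median log2 ratios of near 0 under mark 1 and −0.18 under mark 2. Hmgb4 was at 1770 and 1835 CPM in RNA-poor barcodes, against 3957 and 4304 in middle and 5547 and 5868 in RNA-rich barcodes. Of 33 head-shaping genes, 6 were lower and 2 higher, with median log2 ratios of 0.03 and 0.05, and Actrt2 was at 628 and 664 CPM in RNA-poor barcodes, against 1425 and 1588 in middle barcodes. The chromatin and head-shaping lists kept lower members after median scaling, 12 and 10. Of 8 testis-specific serine kinases none was called. Of 24 midpiece genes 4 were higher and 1 lower, and of the higher ones Cyct, the testis cytochrome c, was at 129 and 134 CPM in RNA-poor barcodes, against 84.0 and 80.2 in middle and 236 and 246 in low-share barcodes. Spaca1, an acrosome membrane protein, was at 242 and 224 CPM in RNA-poor barcodes, against 154 and 144 in middle and 452 and 440 in low-share barcodes. Pabpc1, a poly(A)-binding protein, was at 841 and 755 CPM in RNA-poor barcodes, against 545 and 454 in middle and 1567 and 1457 in low-share barcodes. The spermatocyte genes Piwil1, Ccnb2 and Nxt1 were higher too, with Piwil1 at 81.7 and 64.3 CPM in RNA-poor barcodes, against 53.3 and 37.98 in middle and 160 and 137 in low-share barcodes.

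Against middle barcodes the genes of the highest ratio included Mdm2, AY036118, Defb19, 1700041C23Rik, Morc2b, Pmpcb, Rsrc1, Mrpl39 and Pabpc6. Mdm2, the ubiquitin ligase of p53, led them at 67.3 and 59.6 CPM in RNA-poor barcodes, against 37.3 and 33.5 in middle and 117 and 119 in low-share barcodes. Defb19, a defensin of Sertoli cells, was at 122 and 94.9 CPM in RNA-poor barcodes, against 65.7 and 56.5 in middle barcodes. It was lower than in middle barcodes when the Prm2-led barcodes were taken alone, by 0.82 on the log2 scale. The genes of the lowest ratio included Tex37, at 343 and 356 CPM in RNA-poor barcodes, against 812 and 899 in middle barcodes, and Defb33, at 185 and 216 CPM against 465 and 539.

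Against RNA-rich barcodes, 684 of 15212 genes were higher (4.50%) and 595 lower (3.91%), with the median gene higher by 0.41 and 0.31. Only 2902 of these genes reached the level minimum for a call in either group. Of the lists, 24 of 30 chromatin, 22 of 24 midpiece and 18 of 22 glycolysis genes reached it. After median scaling 269 were higher and 938 lower, and with a share of at least 15% in the rule 134 were lower. Of 30 chromatin genes 14 were lower and 4 higher, against 15 and 2 after scaling, and the median log2 ratio was −0.43 and −0.32. Hils1 was at 1307 and 1240 CPM in RNA-poor barcodes, against 3225 and 2629 in RNA-rich barcodes. H2al3, a histone variant of the X chromosome, was at 166 and 191 CPM in RNA-poor barcodes, against 564 and 571 in RNA-rich barcodes. Prm3 was at 2480 and 2873 CPM in RNA-poor barcodes, against 4145 and 4363 in RNA-rich barcodes. Of 33 head-shaping genes 12 were lower and 4 higher (Spem1, Spem2, Spag16 and Lelp1). Of 24 midpiece genes 9 were higher and 3 lower, or 4 and 4 after scaling. Of 33 proteasome genes 9 were higher and 1 lower, or 2 and 2 after scaling. Of 22 glycolysis genes 5 were higher and none lower, or 2 and 1 after scaling.

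Against low-share barcodes of like UMI number, the RNA-poor barcodes had higher levels of 5 of 8 testis-specific serine kinases and partners and of 10 of 24 glycolysis genes. On unscaled CPM they had lower levels of 16 of 27 spermatocyte and 27 of 45 acrosome genes. Of 19360 genes measured, 543 were higher (2.80%) and 1861 lower (9.61%), with the median gene lower by 0.83 and 0.92. Only 3667 of these genes reached the level minimum for a call in either group. Of the lists, 38 of 45 acrosome, 18 of 24 glycolysis and 17 of 27 spermatocyte genes reached it. After scaling by the median ratio 1041 were higher and 87 lower, and by TMM 1286 and 41, so that the lower calls in most lists rest on the unscaled CPM. The 5 kinases and partners were Tssk2, Tssk3, Tssk6, Tsks and Tsacc, also after scaling, and Tssk4 was lower on unscaled CPM. Tssk3 was at 1232 and 1296 CPM in RNA-poor barcodes, against 375 and 363 in low-share barcodes. Of the glycolysis genes 10 were higher and 6 lower, or 11 and none after scaling, with Gapdhs at 5422 and 5694 CPM in RNA-poor barcodes, against 1378 and 1389 in low-share barcodes. Of the fibrous sheath and outer dense fibre list 9 of 24 were higher and 8 lower, or 12 and 1 after scaling, with Odf2, an outer dense fibre protein, at 5330 and 5685 CPM in RNA-poor barcodes, against 2039 and 2074 in low-share barcodes.

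Glul, glutamine synthetase, was among the 10 genes of the highest ratio, at 904 and 993 CPM in RNA-poor barcodes, against 169 and 165 in low-share barcodes. Of 45 acrosome genes 27 were lower and 3 higher, against none lower and 6 higher after scaling, with the acrosin gene Acr at 88.7 and 86.2 CPM in RNA-poor barcodes, against 171 and 163 in low-share barcodes. Of 27 spermatocyte genes 16 were lower, and 3 after scaling. Of 33 proteasome genes 20 were lower and only Psma6 was higher, at 1597 and 1764 CPM in RNA-poor barcodes, against 765 and 789 in low-share barcodes. The 10 mitochondrial genes that were lower included mt-Co1, at 917 and 730 CPM in RNA-poor barcodes, against 4787 and 4138 in low-share barcodes. Mitochondrial genes took 0.519% of UMIs outside the 4 transcripts in RNA-poor barcodes, against 0.343% in middle, 0.264% in RNA-rich and 2.80% in low-share barcodes.

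**Figure D5:**
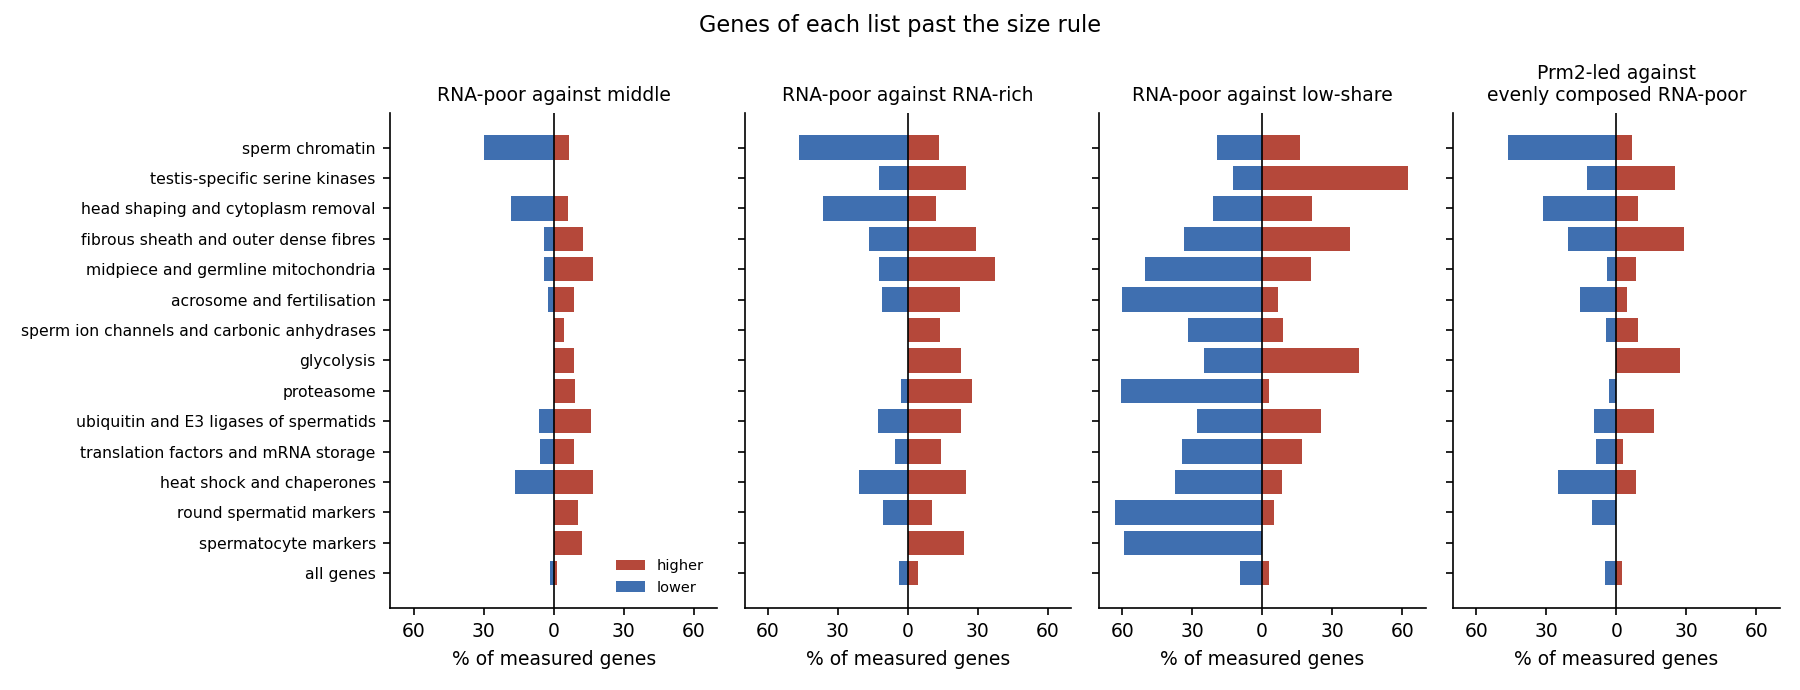
Percent of the measured genes of each list that were higher (right) or lower (left) by the size rule in the 4 comparisons, from unscaled CPM, with all genes in the bottom row. In that row only 2783 of 15635 genes reached the level minimum for a call against middle barcodes. Against RNA-rich barcodes 2902 of 15212 reached it, and against low-share barcodes 3667 of 19360. Chromatin genes are lower in 9 of 30 against middle, 14 of 30 against RNA-rich and 14 of 30 for Prm2-led against evenly composed barcodes; after median scaling the acrosome, proteasome and spermatocyte calls against low-share barcodes fall to 0, 0 and 3 lower genes.

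By the size rule, Spem2 alone exceeded each of the middle, RNA-rich and low-share groups by 1.5-fold. After median scaling it did not, with ratios to middle barcodes of 1.247 and 1.301. Between Prm2-led RNA-poor and Prm2-led middle barcodes, 0 of the 4 given markers were called, Spem2 among them. The genes that follow are given on unscaled CPM, on which the median gene was itself higher than in middle barcodes by 0.32 and 0.33 on the log2 scale. Genes were ranked by their ratio to the highest of the middle, RNA-rich and low-share groups, with the smaller ratio of the marks. The 15 highest were led by Spem2 (1.57) and followed by Phkg2 (1.40), Acsbg2 (1.39), Lrrc1 (1.37), Coil (1.37), Bri3bp (1.34) and Tpi1 (1.33). The list stops at 15 genes and is not a count of genes past a limit. Phkg2, the catalytic subunit of phosphorylase kinase in testis and liver, was at 1341 and 1347 CPM in RNA-poor barcodes, against 954 and 928 in middle barcodes. Tpi1, triosephosphate isomerase, was at 537 and 518 CPM in RNA-poor barcodes, against 392 and 390 in middle barcodes. Both were higher in Prm2-led than in evenly composed RNA-poor barcodes, with Phkg2 at 1709 and 1676 CPM against 648 and 709.

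Sums of the marker genes of other cells differed between the groups. The 18 Sertoli genes summed to 310 and 235 CPM in RNA-poor barcodes, against 160 and 130 in middle, 77.2 and 70.1 in RNA-rich and 431 and 342 in low-share barcodes, and 5499 and 6524 in the Sertoli gate. The 15 macrophage genes summed to 261 and 323 CPM in RNA-poor barcodes, against 257 and 248 in middle, 199 and 216 in RNA-rich and 301 and 301 in low-share barcodes. They summed to 27507 and 21891 CPM in the macrophage gate, and 2 RNA-poor barcodes were in that gate. Of these genes only Apoe was called higher, against RNA-rich and low-share barcodes. Of the 12 T and NK cell genes, at 90.9 and 98.0 CPM in RNA-poor and 81.8 and 64.9 in low-share barcodes, only Cd3d was called higher, against low-share barcodes. The 15 Leydig genes summed to 24.7 and 28.3 CPM with Lhcgr and Klk1b24 at 0, the 7 endothelial genes to 5.69 and 6.01 CPM with Emcn at 0, and the 11 stromal genes to 8.47 and 7.12 CPM. Sertoli transcripts thus had the same order over the groups as the mitochondrial share. The 27 spermatocyte genes summed to 7081 and 6884 CPM in RNA-poor barcodes with Mei4 at 0, against 5906 and 5840 in middle, 6721 and 6547 in RNA-rich and 10997 and 11283 in low-share barcodes. X-linked genes took 1.36% of UMIs outside the 4 transcripts in RNA-poor barcodes, against 1.75% in middle, 2.03% in RNA-rich and 1.08% in low-share barcodes. Of the 272 genes lower than in middle barcodes 24 were X-linked, against 1 of the 237 higher and 442 of the 15635 measured (2.83%). Only 2783 of the measured genes reached the level minimum for a call, so the last share is not a like background. The part of these transcripts in the results was not tested.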

How the data were processed

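The deposited table holds raw UMI counts of 20476 genes in 28245 barcodes, whole numbers that the authors had not normalised, as the values themselves show. The counts were made with Cell Ranger 1.3.1 and Seurat 3.2.2 on GRCm38, per the submitters' processing notes, and the libraries with 10x 3′ chemistry version 3.1, per the labels' protocols. How barcodes were filtered before deposit is not stated in these sources. No barcode held fewer than 3529 UMIs. All columns of values were used (0 were left out).

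UMIs were summed per group and mark and divided by the UMIs outside Prm1, Prm2, Tnp1 and Tnp2 to give CPM. A gene was measured with at least 20 UMIs over both groups and called when its levels differed 1.5-fold one way for each mark and the greater rested on no fewer than 50 CPM and 50 UMIs. Percentages are of measured genes, which include genes below the 50 CPM and 50 UMIs in both groups. Sums of 0 UMIs were replaced by 3 as a floor. Levels have exact Poisson intervals, ratios exact conditional binomial intervals and shares Clopper-Pearson intervals at 95%, all covering counting error only. PCR copies were collapsed by the UMIs. Thinning drew 3500 UMIs per barcode without replacement and left out no barcode. With 1 library per genotype and no tie of mark to genotype there were no replicates, no test and no p-value, and the genotype comparison was not made. miR-202 itself was not analysed here.

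Members, markers and gene lists were chosen with earlier results of these data known, and the division at a Prm2 part of 45% was added after the values were seen. The given markers were also members of lists, Spem2 and Lelp1 of head shaping and Tssk6 of chromatin and of the serine kinases. The genes named are the 4 defining transcripts, the given markers, the 10 genes of highest and of lowest ratio in each comparison, the highest levels and listed genes past the rule, and of these only a part is printed. Other named genes were chosen after their values were seen. Doublets were not removed. The size rule was checked on simulated counts with changes larger than 1.5-fold and no general shift between the groups. That check therefore does not bear on how the calls depend on the scaling. Promoter windows come from RefSeq on GRCm38.p6 and gene positions from GENCODE M21. Python 3.11.15, numpy 2.4.6, scipy 1.17.1, pandas 2.3.3 and matplotlib 3.10.9 were used, and edgeR 4.0.16 in R 4.3.3 gave TMM factors as an alternative scaling.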

Additional observations from a re-analysis of the deposited data

How the results depend on the processing

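No paired analysis was possible because no source ties a barcode mark to a sample and no test was run. The main limits are scaling and the composition of the set. The counts below are genes past the size rule, and the cause of each change was not tested unless the setting itself sets it. Against middle barcodes, the 237 higher genes became 0 both with scaling by the median ratio and with TMM, 0 at 2-fold, 118 at a minimum of 100 CPM, 920 with no CPM minimum, 523 with CPM over all UMIs and 384 from sums pooled over the marks. They became 36 with a share of 20%, 595 with fewer than 7000 UMIs, 157 with fewer than 5000 and 573 with the evenly composed barcodes alone. The 272 lower genes became 630 with the median ratio, 621 with TMM, 33 at 2-fold, 501 with no CPM minimum, 162 with CPM over all UMIs, 0 with a share of 15%, 3 with 20%, 524 with the Prm2-led barcodes alone and 45 with the evenly composed ones alone.

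Against RNA-rich barcodes, the 684 higher genes became 269 with the median ratio, 260 with TMM, 171 at 2-fold, 344 at 100 CPM, 2535 with no CPM minimum, 278 with a share of 20% and 186 with fewer than 5000 UMIs. The 595 lower genes became 938, 969 and 256 with the first 3 of these settings, 1154 with no CPM minimum, 134 with a share of 15%, 99 with 20% and 30 with the evenly composed barcodes alone. Against low-share barcodes, the 543 higher genes became 1041 with the median ratio, 1286 with TMM, 355 at 2-fold and 215 with fewer than 5000 UMIs. The 1861 lower genes became 87, 41, 366 and 633 with these settings, 974 at 100 CPM and 9042 with no CPM minimum.

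Between the sets of RNA-poor barcodes, 281 higher and 654 lower genes became 429 and 407 with the median ratio, and stayed within 1.5 times with the division at 35% or 55% and without barcodes rich in Sertoli genes. The set itself, 9.60% of barcodes, became 41.5% with a share of 5%, 2.44% with 15%, 0.761% with 20%, 4.75% with fewer than 7000 UMIs and 0.666% with fewer than 5000. The part of Prm2 among the UMIs of the 4 transcripts, 52.8%, became 29.2% with a share of 15%, 24.1% with 20%, 56.8% with fewer than 7000 UMIs and 55.7% with fewer than 5000.

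Thinned to 2000 UMIs, the share of RNA-poor barcodes with a UMI was 66.1% for Spem2, 82.6% for Car2, 95.9% for Tssk6 and 90.6% for Lelp1. With CPM over all UMIs the levels were 685 for Spem2, 1146 for Car2, 2755 for Tssk6 and 1814 for Lelp1. Directions that turned are given as log2 of the smaller ratio. Against middle barcodes they were Spem2 at −0.0051 with a share of 20% and −0.48 with the evenly composed barcodes alone, Defb19 at −0.82 with the Prm2-led alone and −0.075 without barcodes rich in Sertoli genes, and Hbb-bs at 0.70 with a share of 15%. Against RNA-rich barcodes they were Car2 at −0.011 with a share of 15%, −0.23 with 20% and −0.34 with the evenly composed alone, Lelp1 at −0.10 with 20% and −0.30 with the evenly composed alone, Tssk6 at −0.091 and −0.24 in those settings, and Spem2 at −0.060 with the evenly composed alone.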

Other observations

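Prm2-led barcodes also occurred below a share of 10% and below 9000 UMIs, outside the rule. Erythroid genes summed to 5.31 and 7.08 CPM in the 1764 Prm2-led RNA-poor barcodes, against 445 and 535 CPM in the 781 Prm2-led middle barcodes and 2910 and 1160 CPM in the 447 Prm2-led low-share barcodes. Over all low-share barcodes the sums were 1472 and 1252 CPM. The sums were 6.09 and 5.88 CPM in evenly composed middle barcodes and 14.4 and 89.3 CPM in evenly composed RNA-poor ones. Erythroid genes were thus higher in Prm2-led than in evenly composed barcodes of the middle group. In the RNA-poor group only 3 barcodes held 5 or more hemoglobin UMIs, and the evenly composed sums differed widely between the marks. No direction is therefore read from the RNA-poor group. The source of these transcripts was not tested.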
